A study of Homo sapiens with 10 samples.

Results

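The proteins of the cytosolic small ribosomal subunit were followed through 62 probe sets, out of 54630 on the array, that the platform annotation assigns to an RPS gene or to FAU. Every probe set with such a symbol was taken, whatever its values, including 12 whose annotation also names other genes, 11 of them with a small nucleolar RNA and 1 with RPS26 pseudogene symbols. They cover 26 of the 21357 genes named on the array. Total RNA isolated with Trizol was compared between 5 preparations of microvesicles, small membrane-bound particles shed by cells, and 5 preparations of K562, the human chronic myeloid leukaemia line that released them and that carries the BCR-ABL1 fusion. Neither group had a further treatment in the labels, both came from 1 cell line, and the 5 experiments were described as independent. Whether microvesicles and cells of the same number came from 1 culture is not stated, and p-values rest on how these preparations varied, which may be technical. The comparison asks how the RNA carried by microvesicles differs from that of the parent cells.

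The small subunit binds the mRNA and, at its decoding centre, matches each codon with a transfer RNA. It is built in the nucleolus on 18S ribosomal RNA with the help of many assembly factors and is finished in the cytoplasm. Its proteins are encoded mostly by single genes with many processed pseudogenes, and several of these genes host small nucleolar RNAs in their introns. Most of the mRNAs start with a terminal oligopyrimidine (TOP) motif, a C followed by a run of C and T bases, through which growth signals control their translation. Erythroid cells depend strongly on the dose of these genes, and losses of RPS19, RPS24, RPS26, RPS10 and others cause Diamond-Blackfan anaemia.

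The annotated transcription start was read from RefSeq for 23 of the 26 genes (GRCh38.p14). A TOP motif, here a C at the first transcribed base followed by at least 4 bases that are each C or T, read on the transcribed strand only, was present in 17 of these genes and in 4.07% of all 35116 promoter entries. The windows below hold 10 bases before the start and 20 from the start, and capitals mark the unbroken pyrimidine run that begins with a C at the annotated start. The first 7 belong to genes with the motif whose bright probe sets lay at either end of the measured differences, and the next pair to genes whose dim probe sets differed most in the upward direction.
RPS16, chr19:39435930-39435959, minus strand: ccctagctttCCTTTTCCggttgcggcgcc
RPS3, chr11:75399508-75399537, plus strand: cgagccacttCCTTTCCTTTCagcggagcg
RPS19, chr19:41860245-41860274, plus strand: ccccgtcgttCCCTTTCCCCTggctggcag
RPS21, chr20:62387093-62387122, plus strand: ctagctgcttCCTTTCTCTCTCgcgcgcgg
RPS13, chr11:17077648-17077677, minus strand: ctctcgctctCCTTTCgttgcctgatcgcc
RPS23, chr5:82278335-82278364, minus strand: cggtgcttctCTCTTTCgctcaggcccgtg
RPS24, chr10:78033853-78033882, plus strand: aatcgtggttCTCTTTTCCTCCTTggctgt
RPS10, chr6:34426050-34426079, minus strand: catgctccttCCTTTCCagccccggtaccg
RPS6, chr9:19380217-19380246, minus strand: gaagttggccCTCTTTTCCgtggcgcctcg
The other 6 genes had no such run at the annotated start, and 5 of them are shown because their bright probe sets also lay at either end of the differences or, for RPS4X, did not overlap between the groups.
RPS28, chr19:8321486-8321515, plus strand: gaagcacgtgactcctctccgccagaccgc
RPS29, chr14:49598691-49598720, minus strand: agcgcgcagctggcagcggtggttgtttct
RPS15, chr19:1438386-1438415, plus strand: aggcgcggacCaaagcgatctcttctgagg
RPS26, chr12:56041908-56041937, plus strand: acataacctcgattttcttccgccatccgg
RPS4X, chrX:72277229-72277258, minus strand: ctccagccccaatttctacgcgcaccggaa
RPS24 had the longest run, 14 bases. No match says only that these letters do not stand at the annotated start.

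The probe sets fell into 2 separate ranges of level. A probe set was called bright when its mean log2 expression over all 10 arrays was at least 10 and dim when it was lower, and 42 were bright and 20 dim. Bright probe sets had means of 10.93 to 13.89 and dim ones of 3.01 to 7.47. The bright one nearest the limit was RPS21 214097_at at 10.93 and the dim one nearest it was RPS10 214001_x_at at 7.47. Levels of different probe sets are hybridization signals and are not compared as amounts of mRNA. Of the 26 genes, 16 had both bright and dim probe sets, 10 had bright ones only, and 0 had dim ones only.

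The bright small subunit probe sets lay close together in the 2 groups. Their median difference, microvesicles minus cells, was -0.00070 on the log2 scale, with 21 of 42 above 0 and quartiles at -0.11 and 0.14. Over all 1219 bright probe sets the median difference was -0.32, and over the 1096 that belong to neither ribosomal subunit it was -0.38. The median absolute difference was 0.13 for the bright small subunit probe sets and 0.38 for all bright ones. A difference of at least 0.5 in either direction was found in 1 of the 42, or 2.38%, against 39.6% of all bright probe sets. The median over the 42 in each array was 13.22, 13.20, 13.23, 13.15 and 13.18 in microvesicles 1 to 5, against 13.16, 13.18, 13.23, 13.11 and 13.15 in cells 1 to 5. These medians overlapped between the groups. The contrast with other bright probe sets depended on the scaling. After loess normalization by level the median difference was 0.065 for the small subunit and 0.020 for all bright probe sets. Repeated quantile normalization gave 0.039 and 0.0040, and median centring gave -0.16 and -0.48, in that order of sets.

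By limma with Benjamini-Hochberg adjustment over all 54613 tested probe sets, 1 of the 42 bright small subunit probe sets (2.38%) rose and 0 fell at an adjusted p under 0.05. The background was 48.6% of all bright probe sets, with 4.92% higher and 43.7% lower in microvesicles, and 62.4% of all probe sets. The count of calls depended on how the spread was modelled. The bright small subunit probe sets had a median own SD of 0.070, which limma's shared prior of 0.334 raised to a median of 0.225, so that SEs were 0.14 to 0.17. With a variance trend and robust fitting, which lets the prior follow the level, 10 rose and 8 fell (42.9%), against 66.5% of all bright probe sets, 9.6% higher and 56.9% lower. The exact permutation test per probe set, adjusted over all probe sets, called 9 higher and 12 lower (50%), against 64.4% of all bright probe sets, 9.52% higher and 54.9% lower. After loess by level limma called 5 higher and 0 lower (11.9%), against 30.4% of all bright probe sets, 15.7% higher and 14.7% lower. With the values as deposited, the shares also differed above a mean of 12, where limma called 0 of 39 small subunit probe sets and 42 of 139 probe sets of neither subunit (30.2%), 2 higher and 40 lower. The difference between these shares was not tested.

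**Figure D1:**
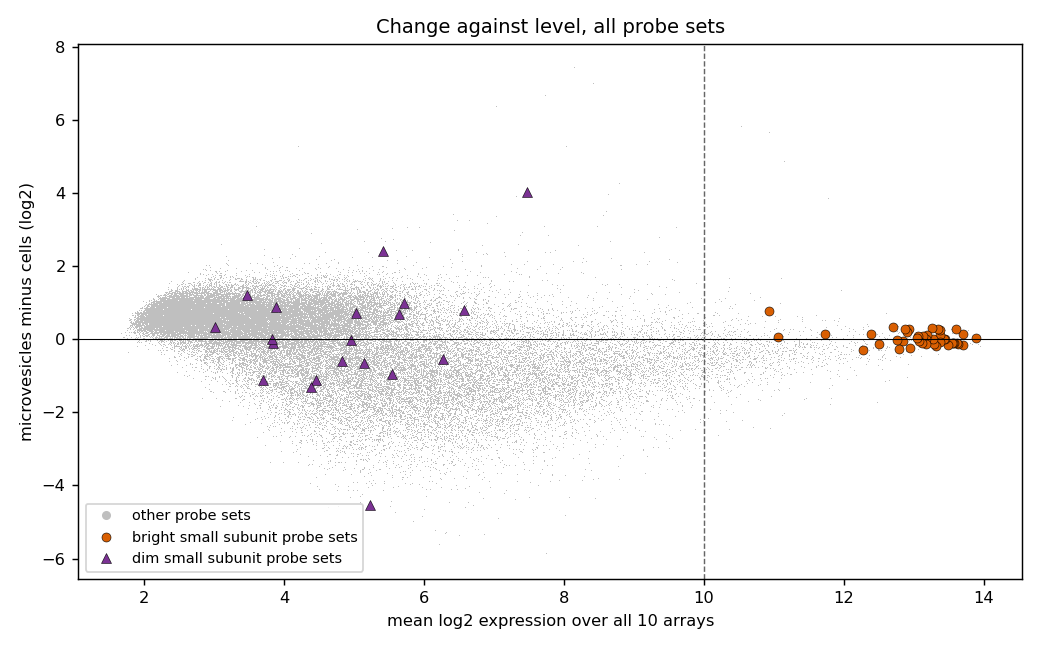
Difference between microvesicles and cells (y axis, log2) against the mean level over all 10 arrays (x axis, log2) for every probe set. Grey points are all other probe sets, orange circles the 42 bright and purple triangles the 20 dim small subunit probe sets, and the dashed line marks a mean of 10. The bright small subunit probe sets sit near 0 at the upper end of the level range, between -0.28 and 0.77, while the dim ones spread from -4.53 to 4.02.

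The bright small subunit probe sets were chosen by a mean level of at least 10. Only 1219 of the 54613 tested probe sets reached that level, so their high rank follows largely from the choice. Dim probe sets of the same genes ranked lower. Their mean percentiles went down to 19.2 in microvesicles (RPS24 1555878_at) and 25.8 in cells (RPS9 1557981_at). The lowest bright small subunit probe set of an array stood at the 99.03rd to 99.21st percentile in microvesicles and at the 97.70th to 98.54th in cells. Of the 100 most intense probe sets of an array, 27 to 31 were small subunit members in microvesicles (median 30) and 27 to 29 in cells (median 28). The highest value of an array was 13.87 to 13.96 in microvesicles and 13.94 to 14.10 in cells, so the bright members lay near the top of the scale. How far signals at this level are compressed was not tested.

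After RPS21, the largest positive differences were those of RPS16, RPS28, RPS29, RPS3 and RPS19, chosen here after their values were seen except for RPS3 and the brightest RPS19 probe set. RPS3 lines the channel through which mRNA enters. RPS3 208692_at read 12.91, 13.14, 13.09, 13.03 and 12.92 in microvesicles 1 to 5, against 12.76, 12.71, 12.76, 12.63 and 12.77 in cells 1 to 5. Its groups did not overlap, and the difference was 0.29 ± 0.14 (SE, limma adjusted p = 0.0917). RPS16, whose tail reaches towards the peptidyl site, had 12.78, 12.95, 12.95, 12.96 and 12.72 on 201258_at in microvesicles 1 to 5, against 12.50, 12.56, 12.62, 12.42 and 12.63 in cells 1 to 5. That probe set was higher in every microvesicle array than in any cell array, with a difference of 0.33 ± 0.15 (limma adjusted p = 0.0638), and 213890_x_at of the same gene differed by 0.29 ± 0.15 (limma adjusted p = 0.0954). The third bright RPS16 probe set, 226131_s_at, differed by 0.14 and overlapped.

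RPS19, the gene most often mutated in Diamond-Blackfan anaemia, had 13.59, 13.78, 13.83, 13.89 and 13.62 on 213414_s_at in microvesicles 1 to 5, against 13.45, 13.47, 13.46, 13.48 and 13.51 in cells 1 to 5. The groups did not overlap and the difference was 0.27 ± 0.15 (limma adjusted p = 0.119). RPS19 202649_x_at differed by 0.25 ± 0.15 and overlapped narrowly, with a lowest microvesicle value of 13.32 and a highest cell value of 13.34. RPS28 208904_s_at, for a small protein of the head, averaged 13.41 ± 0.12 in microvesicles and 13.11 ± 0.057 in cells (SD, n = 5 each). Its difference was 0.31 ± 0.15 (limma adjusted p = 0.0794), without overlap. RPS29 201094_at, for a zinc-binding protein of the head, averaged 13.07 ± 0.13 in microvesicles and 12.79 ± 0.059 in cells (SD, n = 5 each), and its difference of 0.28 ± 0.15 had a limma adjusted p of 0.109. None of these passed in the test with the shared prior, and all 7 named probe sets of RPS16, RPS3, RPS19, RPS28 and RPS29 with differences of 0.25 to 0.33 passed with the variance trend (adjusted p 0.00121 to 0.00926).

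RPS21 was the one gene with a bright probe set that rose, and its probe sets disagreed. RPS21 214097_at read 11.27, 11.30, 11.30, 11.25 and 11.46 in microvesicles 1 to 5, against 10.73, 10.34, 10.54, 10.28 and 10.85 in cells 1 to 5. All microvesicle values lay above all cell values, and the difference was 0.77 ± 0.16, a 1.70-fold rise (limma adjusted p = 0.00138). RPS21 200834_s_at, which had the higher signal, differed by -0.016 (limma adjusted p = 0.927), with 12.67 to 12.85 in microvesicles and 12.70 to 12.84 in cells. The first of these was also the dimmest of all bright small subunit probe sets.

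The lower end of the bright range held RPS13, RPS15, RPS24, RPS23 and RPS26. RPS13, which contacts the large subunit, had 12.76, 12.63, 12.66, 12.58 and 12.61 on 200018_at in microvesicles 1 to 5, against 12.94, 12.91, 12.88, 12.93 and 12.93 in cells 1 to 5. Its groups did not overlap, and the difference was -0.27 ± 0.14 (limma adjusted p = 0.106). RPS15, needed for export of the precursor subunit from the nucleus, averaged 12.83 ± 0.069 in microvesicles and 13.07 ± 0.043 in cells on 200819_s_at (SD, n = 5 each), a difference of -0.24 ± 0.14 without overlap (limma adjusted p = 0.141). RPS23, at the decoding centre, differed by -0.16 on 200926_at and RPS24 by -0.19 on 200061_s_at, both without overlap (limma adjusted p = 0.309 and 0.245). These 4 probe sets passed with the variance trend, at adjusted p values of 0.00147 to 0.00962.

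RPS26, which lies where the mRNA leaves the subunit, had the lowest bright difference. RPS26 217753_s_at had 12.45, 12.04, 11.96, 11.89 and 12.29 in microvesicles 1 to 5, against 12.34, 12.30, 12.27, 12.65 and 12.50 in cells 1 to 5. The difference was -0.28 ± 0.17 and the groups overlapped (limma adjusted p = 0.151). The probe set passed in limma with the variance trend (adjusted p = 0.0348) and after median centring (0.0401). It did not pass after loess by level (0.735) or under the exact permutation test (0.0924). This probe set also names an RPS26 pseudogene, so the source of its signal is uncertain.

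Other core genes differed less. RPS6, the protein phosphorylated by S6 kinases, differed by -0.061 to 0.093 over 3 bright probe sets. RPS2 differed by -0.093 to 0.047 over 3, and RPS3A, which contacts initiation factor eIF3, by -0.11 to -0.073 over 3. RPS4X, the X-linked form of RPS4, was lower on both probe sets (-0.14 and -0.10), each without overlap. RPS10 was -0.15 to -0.11 on 3 probe sets, RPS14, whose loss underlies the anaemia of the 5q deletion syndrome, was -0.14, and FAU, which encodes a ubiquitin-like protein fused to RPS30, was -0.13. RPS27 was 0.12 and RPS18, at the top of the head, was 0.026. None passed in limma with the shared prior (adjusted p of the 2 RPS4X probe sets 0.392 and 0.53). With the variance trend RPS4X 200933_x_at and RPS10 200095_x_at and 200817_x_at passed (adjusted p 0.036 to 0.0411). The exact permutation test called both RPS4X probe sets, the 3 of RPS10, RPS14 208645_s_at, and RPS3A 201257_x_at and 212391_x_at lower (adjusted p 0.0173 to 0.0413).

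In all, the groups did not overlap in 15 of the 42 bright small subunit probe sets (35.7%), against 52.2% of all bright probe sets. Probe sets of 1 gene mostly went the same way. Of 11 genes with at least 2 bright probe sets, 8 had differences of 1 sign, the exceptions being RPS2, RPS6 and RPS21. The 8 include RPS20, with 214003_x_at at 0.00027, and the count was not set against chance. The range within a gene had a median of 0.098 and reached 0.78 for RPS21. Over all 42 the range was 1.05, but a range over more values is wider whatever the data, so these ranges are not compared. Probe sets of 1 gene share their mRNA and are not separate replicates.

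**Figure D2:**
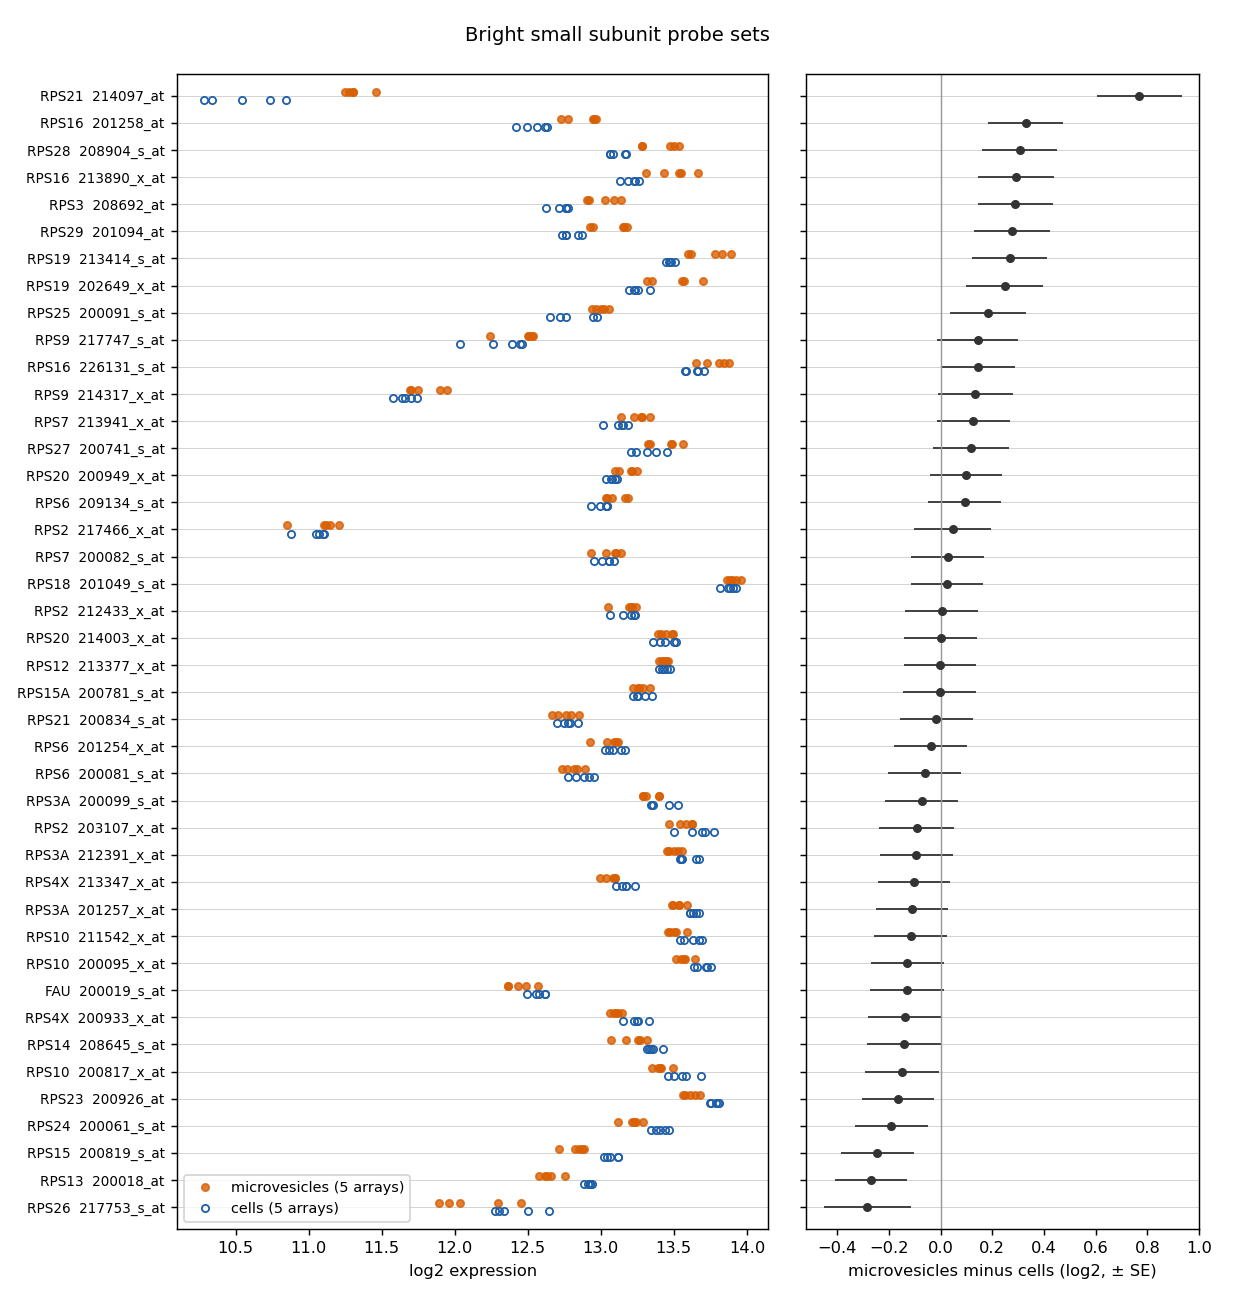
The 42 bright small subunit probe sets, ordered by difference. Left, log2 expression in the 5 microvesicle arrays (filled orange, upper points of each line) and the 5 cell arrays (open blue, lower points); right, the difference ± SE from limma. RPS21 214097_at stands apart at 0.77, and all other differences lie between -0.28 and 0.33.

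The ribosomal RNA of the subunit, unlike the bright probe sets of its proteins, gave lower values in microvesicles. The average of the 3 probe sets that control for 18S ribosomal RNA was 11.13, 10.23, 10.48, 10.23 and 10.71 in microvesicles 1 to 5, against 12.32, 12.27, 12.29, 12.16 and 11.70 in cells 1 to 5. It averaged 10.55 ± 0.38 in microvesicles and 12.15 ± 0.26 in cells (SD, n = 5 each), a difference of -1.59 without overlap (exact permutation p = 0.00794, the smallest this design allows, and 0.0119 adjusted over 3 measures). The difference was -1.34 on the 3 prime, -1.48 on the middle and -1.96 on the 5 prime probe set. The labels do not describe the primer of the cDNA step, and 18S ribosomal RNA has no poly(A) tail, so how its signal relates to its amount was not tested.

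Measures of RNA integrity also differed between the groups. For ACTB, the 3 prime control probe set exceeded the 5 prime one by 3.12 ± 0.34 in microvesicles and 2.39 ± 0.15 in cells (SD, n = 5 each), with an adjusted exact permutation p of 0.0119. For GAPDH it was 0.62 ± 0.13 in microvesicles and 0.449 ± 0.064 in cells (SD, n = 5 each), with an adjusted exact permutation p of 0.0159. The part of this shift in the results for the small subunit was not tested. Across probe sets, which are not independent replicates, correlations between arrays were 0.911 to 0.944 within microvesicles, 0.990 to 0.997 within cells and 0.851 to 0.906 between the groups. Of 8 K562 markers 7 were measured, and all 7 lay above the array median in both groups. Of these, GATA1, TAL1 and TFRC fell and EPOR rose, with summed log2 levels of 56.9 to 62.6 in microvesicles and 62.4 to 64.8 in cells. Of 10 measured markers of lymphocytes, monocytes and fibroblasts 8 rose and 0 fell, among them CD3E, CSF1R and DCN. Of all dim probe sets 36.1% were higher and 26.6% lower in microvesicles. Among the markers that rose, CD14, MS4A1 and CD163 had both group means under the array medians, and CD3E and CSF1R their cell means. A signal at that level is not known to exceed background. The summed log2 levels of the 10 markers were 48.2 to 52.2 in microvesicles and 42.4 to 46.1 in cells, and 6 lay above the array median in microvesicles and 4 in cells. The part of these markers in the results was not tested.

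The dim probe sets of the same genes gave shares near those of all dim probe sets. Of 20, 8 rose and 7 fell (75%), against 62.7% of all dim probe sets, of which 36.1% were higher and 26.6% lower in microvesicles. Their median difference was -0.0087 and their median absolute difference 0.84, against 0.28 and 0.68 for all dim probe sets. The groups did not overlap in 11 of the 20 (55%), against 45.8% of all dim probe sets. In 8 of the 20 the microvesicle mean, and in 5 the cell mean, lay under the median of the arrays, where a signal is not known to exceed background, and 11 had both means above it. Below the median in microvesicles were RPS24, RPS27, RPS23 and RPS20 among the falls and RPS14 217298_at among the rises, and below it in cells were both RPS14 probe sets that rose, so the size and order of these differences are uncertain.

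RPS24 had the most negative fitted difference. RPS24 1555878_at had 2.71, 3.65, 2.82, 3.32 and 2.34 in microvesicles 1 to 5, against 7.17, 7.41, 7.47, 7.51 and 7.91 in cells 1 to 5. The groups did not overlap, and the fitted difference was -4.53 ± 0.24 (limma adjusted p = 2.68e-08). All microvesicle values lay under the array medians, so no fold is given. The bright RPS24 200061_s_at differed by -0.19 in the same arrays. RPS24 mRNA is made in several splice forms, and which part of the transcript the dim probe set reads was not analysed here.

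RPS10 had the largest rise. RPS10 214001_x_at had 8.80, 9.58, 9.37, 9.99 and 9.65 in microvesicles 1 to 5, against 4.92, 5.83, 5.50, 5.61 and 5.44 in cells 1 to 5. The difference was 4.02 ± 0.23, or 16.2-fold higher (limma adjusted p = 4.35e-08), whereas the 3 bright RPS10 probe sets differed by -0.15 to -0.11. RPS6 211690_at likewise had 6.72, 6.64, 6.29, 6.72 and 6.75 in microvesicles 1 to 5, against 3.86, 4.13, 4.49, 4.10 and 4.50 in cells 1 to 5. It rose by 2.41 ± 0.18 (limma adjusted p = 2.90e-07), while the brightest RPS6 probe set, 201254_x_at, differed by -0.038. In cells 211690_at had a mean percentile of 51.8, and its values in cells 1 and cells 4 lay under their array medians. The size of its rise is therefore uncertain. The RefSeq table lists 31 pseudogene loci of RPS10, 26 of RPS6 and 20 of RPS24, and signal from near-identical copies cannot be told apart here.

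Another 6 dim probe sets rose with smaller fitted differences. RPS14 217298_at averaged 4.06 ± 0.29 in microvesicles and 2.87 ± 0.17 in cells, both under the array medians, and RPS14 241241_at averaged 4.34 ± 0.36 in microvesicles and 3.44 ± 0.12 in cells, with the cell mean under them (SD, n = 5 each). Both passed as rises, while the third dim RPS14 probe set, 214245_at, differed by -0.0017. RPS12 217723_x_at, for a protein of the beak, rose (limma adjusted p = 0.00111), with 6.33, 6.78, 6.31, 6.07 and 5.59 in microvesicles 1 to 5, against 5.23, 5.03, 5.21, 5.41 and 5.19 in cells 1 to 5. RPS15A 235309_at rose by 0.79 ± 0.18, RPS3A 216823_at by 0.72 ± 0.16 and RPS19 242451_x_at by 0.68 ± 0.19. Limma adjusted p values of these 6 were 9.77e-05 to 0.00699, and their groups did not overlap. After loess by level the differences were 1.61 for RPS15A, 1.13 for RPS19, 0.77 for RPS14 217298_at and 0.57 for RPS14 241241_at. The 3 dim probe sets whose names end in _x_at, which the manufacturer marks as able to bind several transcripts, all rose. Of 16 ending in _at 5 rose and 7 fell. Over all dim probe sets 36.1% were higher and 26.6% lower, and these shares were not computed by name ending. Whether binding of several transcripts has a part in these rises was not tested.

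Falls among the dim probe sets other than RPS24 were between -1.31 and -0.59. RPS27 236621_at had 4.09, 3.46, 3.50, 4.23 and 3.42 in microvesicles 1 to 5, against 5.10, 4.69, 5.04, 4.93 and 5.46 in cells 1 to 5. It fell, with a difference of -1.31 ± 0.21 (limma adjusted p = 0.000196), and did not overlap, while the bright RPS27 200741_s_at differed by 0.12. RPS23 227722_at (-1.12 ± 0.28) fell without overlap, and RPS20 216247_at (-1.12 ± 0.35), RPS16 226130_at (-0.94 ± 0.29), RPS15A 229882_at (-0.65 ± 0.23) and RPS29 238824_at (-0.59 ± 0.23) fell with overlap (limma adjusted p 0.0041 to 0.036). RPS16 and RPS29 had bright probe sets with positive differences beside these, and RPS15A had dim probe sets in both directions beside a bright one at -0.0031. The RPS16 226130_at call was lost after loess by level (-0.54, adjusted p = 0.17), after quantile normalization (-0.53, 0.269) and under the exact permutation test (0.0625), which also ended the RPS20 call (0.0721). The RPS15A 229882_at call was lost after loess (0.103) and quantile normalization (0.15), and the RPS29 call after quantile normalization (0.137). The RPS29 call was lost without microvesicles 1 (adjusted p = 0.0807), without microvesicles 3 (0.0873) and without any single cell array (0.0554 to 0.0755). The RPS15A call was lost without microvesicles 4 (0.0575), cells 4 (0.0568) or cells 5 (0.0749).

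The other 5 dim probe sets did not pass. RPS28 208903_at differed by -0.53 ± 0.23 (limma adjusted p = 0.0594), and passed without microvesicles 5 (0.0191) or cells 3 (0.0391). Its sign turned after loess by level (0.22) and quantile normalization (0.19). RPS9 1557981_at differed by 0.35, and by -0.17 after loess and -0.094 after quantile normalization. RPS15 1563014_at differed by -0.11, RPS28 208902_s_at by -0.016 and RPS14 214245_at by -0.0017.

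**Figure D3:**
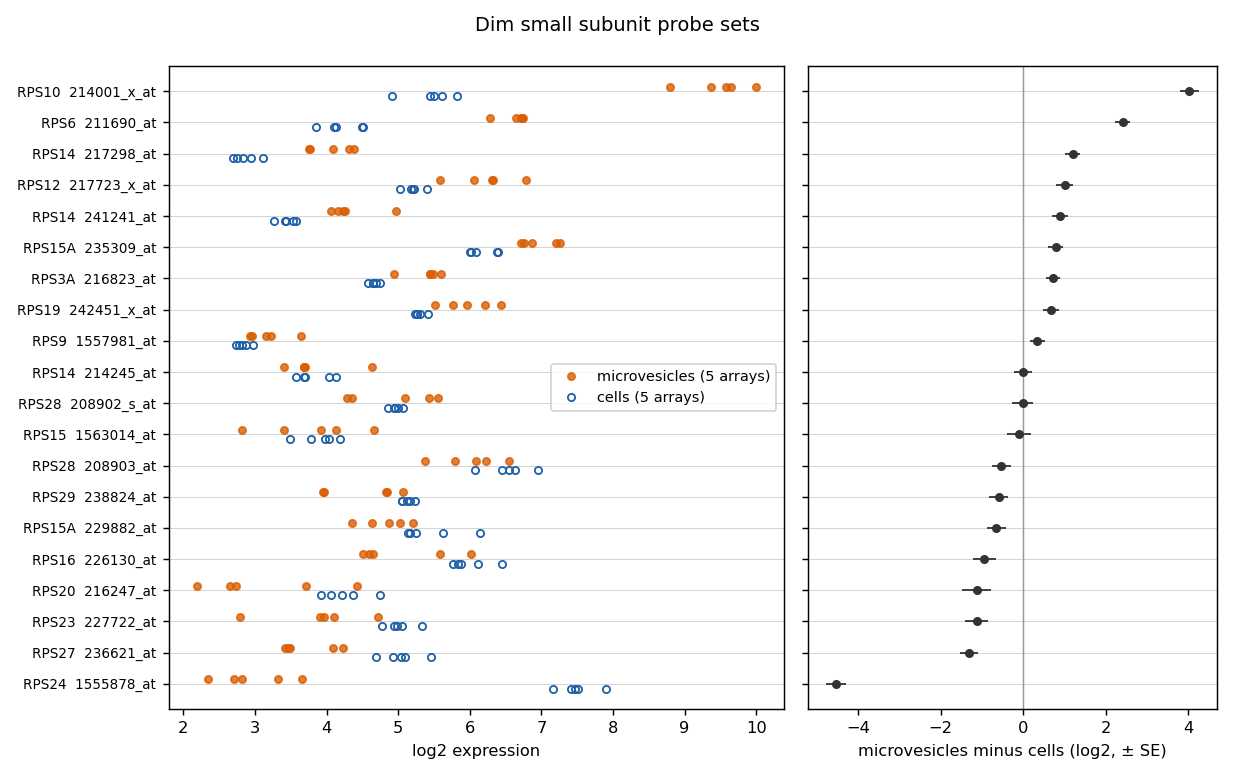
The 20 dim small subunit probe sets, ordered by difference. Left, log2 expression in the 5 microvesicle arrays (filled orange, upper points of each line) and the 5 cell arrays (open blue, lower points); right, the difference ± SE from limma. RPS10 214001_x_at (4.02) and RPS6 211690_at (2.41) stand apart at the top and RPS24 1555878_at (-4.53) at the bottom.

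**Figure D4:**
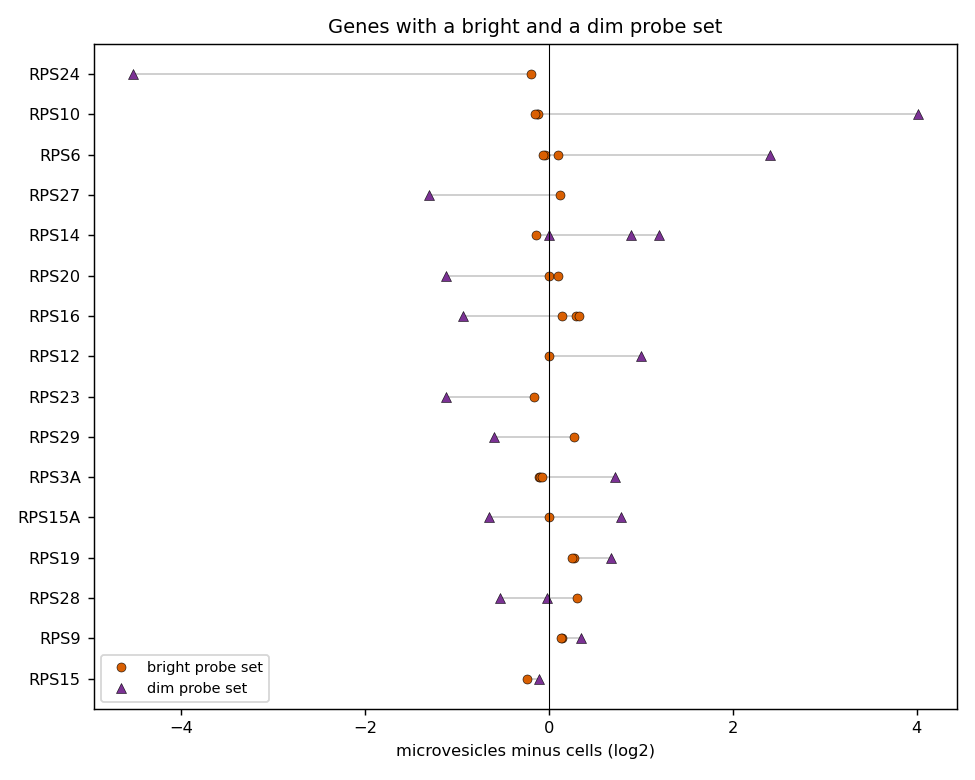
Differences between microvesicles and cells (log2, x axis) for the 16 genes with both bright (orange circles) and dim (purple triangles) probe sets. Genes are ordered by the gap in difference between their brightest and their dimmest probe set. The bright probe sets stay between -0.24 and 0.33, and the dim ones lie on either side of them.

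Features outside the rule were set beside the bright differences as a description. The 28 bright probe sets of genes with a TOP motif had a median difference of -0.0086 and the 8 of genes without one -0.037. RPS28 and RPS29, without the motif, lay near the upper end, as did RPS16 and RPS3 with it, and RPS13 with the motif lay near RPS26 and RPS15 without it. The 9 bright probe sets that also name a small nucleolar RNA had a median of -0.073 and the other 33 a median of 0.026. Of the 6 bright probe sets ending in _at the median was 0.28, against -0.020 for 18 ending in _x_at and 0.011 for 18 ending in _s_at.

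Assembly factors of the small subunit were lower in microvesicles, unlike the bright probe sets of the subunit's own proteins. Of 57 listed genes 55 were measured, each through its highest probe set, and 43 fell, 0 rose and 12 did not pass (78.2% called). Over all probe sets, at a median level of 4.21, 62.4% were called, 35.4% higher and 27% lower in microvesicles. These shares varied with level, since 43.7% of all bright and 26.6% of all dim probe sets were lower. No background matched to the level of the assembly factors was computed, so how unusual their share of falls is was not tested. The median difference of the assembly factors was -0.91 at a median level of 8.34. The median level of the bright small subunit probe sets was 13.18, and the sets were not matched for level. WDR36, of the processome that first processes the precursor, averaged 5.98 ± 0.76 in microvesicles and 8.49 ± 0.17 in cells (SD, n = 5 each), a difference of -2.51 ± 0.30 (limma adjusted p = 1.35e-05). DDX52, an RNA helicase, averaged 5.19 ± 0.44 in microvesicles and 7.35 ± 0.10 in cells (SD, n = 5 each), a difference of -2.16 ± 0.21 (limma adjusted p = 2.33e-06). After loess normalization by level the list held 6 rises and 21 falls with a median of -0.26, while 18.1% of all probe sets were higher and 21.6% lower. After a second quantile normalization it held 5 rises and 19 falls with a median of -0.28.

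A list of other TOP mRNAs was set beside the small subunit without a test of the difference. Of 15 listed translation factors and related genes 12 were measured, with 1 rise, 1 fall, 10 not passed (16.7% called, against 48.6% of all bright probe sets) and a median difference of -0.16 at a median level of 12.18. The list held 3 rises and 6 falls with the variance trend, and 3 and 5 under the exact permutation test. All bright probe sets were called at 66.5% and 64.4% in these tests, so the list's share was not lower there. After median centring it held 0 rises and 5 falls, beside 36 and 694 among all bright probe sets. After loess by level it held 3 rises, with 15.7% of all bright probe sets higher. EIF4B, an initiation factor, rose by 0.41 ± 0.16 (limma adjusted p = 0.0364), a call lost without microvesicles 2 or 3 (adjusted p = 0.0541 and 0.0626), and without cells 2, 3, 4 or 5 (0.0519 to 0.0923). HNRNPA1, a splicing regulator, averaged 10.71 ± 0.44 in microvesicles and 11.67 ± 0.29 in cells (SD, n = 5 each) and fell, with a difference of -0.96 ± 0.23 (limma adjusted p = 0.00272). The elongation factor genes EEF1A1 and EEF2 differed by -0.15 and -0.16, and TPT1 by -0.23, without passing. RPS27L, a relative of RPS27 outside the rule, differed by -0.16 (limma adjusted p = 0.375).

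Of 81 bright probe sets of the large subunit 2 rose and 3 fell (6.17%, against 48.6% of all bright probe sets), with a median difference of 0.0060. Of its 40 dim ones 17 rose and 10 fell (67.5%), near the 62.7% of all dim probe sets. These counts also depended on how the spread was modelled. Read as 38 genes, each through its highest probe set, the large subunit had 3 rises and 2 falls in limma. This list is not limited to bright probe sets. Its 3 rises, RPL27A, RPLP2 and RPL10L, and its fall of RPL36A were on dim probe sets, with means of 8.47, 5.82, 6.19 and 3.42. The list had 9 and 8 with the variance trend, where 66.5% of all bright and 62.8% of all probe sets were called. Under the exact permutation test it had 10 and 7, where 64.4% of all bright and 57.6% of all probe sets were called. No share of the large subunit was tested against that of the small subunit.

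**Figure D5:**
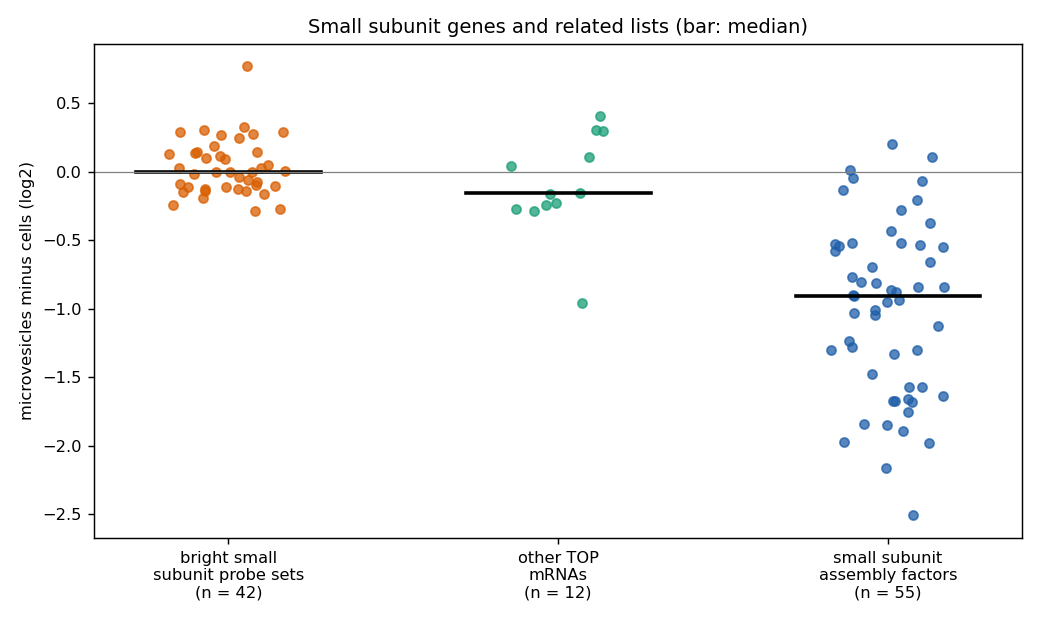
Difference between microvesicles and cells (log2, y axis) for the 42 bright small subunit probe sets, the 12 measured other TOP mRNAs and the 55 measured small subunit assembly factors, with 1 point per probe set or gene and a bar at the median (-0.00070, -0.16 and -0.91). Points are spread sideways only for legibility.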

How the data were processed

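RNA of 5 microvesicle and 5 K562 cell preparations was hybridized as biotinylated cRNA to Affymetrix HG-U133 Plus 2.0 arrays, 1 array each. The deposited values are log2 expression per probe set made with RMA by the authors, per the submitters' processing notes, with a version not given in the sources used here. It makes intensity distributions alike on all arrays, so a difference in total RNA is not visible, and the values hold no detection call. The number of arrays limits the precision.

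Gene symbols came from the platform annotation, which lists 1 gene for 41091 probe sets, several for 1801 and none for 11721. Groups were taken from the labels and compared with limma 3.58.1 in R 4.3.3 (lmFit and eBayes, 2-sided) over 54613 probe sets, leaving out 17 controls, with Benjamini-Hochberg adjustment and a threshold of 0.05. Each difference is the microvesicle mean minus the cell mean (log2) ± SE, and group means are ± SD. The control probe sets were compared by an exact two-sided permutation test. Medians and counts over members are descriptions, read against the same over all probe sets, and no list was tested.

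The named probe sets are every bright member past the threshold, the 10 largest rises and falls among dim members past it, the brightest probe set of RPS2, RPS3, RPS3A, RPS4X, RPS6, RPS14, RPS19 and FAU, the extremes of the 4 genes with the widest gap between bright and dim, and up to 2 rises and falls of each other list, in which each gene was read from its highest probe set. RPSA and RPS27A are also in that rule but were not analysed here. Another 11 probe sets, of RPS13, RPS15, RPS16, RPS19, RPS21, RPS23, RPS26, RPS28 and RPS29, were singled out after their values were seen. The members, the lists and the alternatives were chosen with earlier results of these data known.

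Alternatives were the replicate number as a block, median centring, a second quantile normalization, loess by level (span 0.3, 4 iterations), a filter at a mean of 5, array weights, a trend in the variance fitted robustly, members that name 1 gene, the exact permutation test, bright limits of 8 and 12, and leaving out each array. On simulated data for this comparison with 54613 probe sets, limma recovered 1 of 50 changes of 0.5, 19 of 50 of 1, 46 of 50 of 2 and 49 of 50 of 3, with 5 false calls. Only these probe sets were changed, picked at random over all levels, whereas limma called 62.4% of all probe sets in the data. The median own SD was 0.356 over all probe sets and 0.070 for bright members. The recoveries are therefore not the power of the reported comparison.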

Additional observations from a re-analysis of the deposited data

Results flagged for a closer look

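Single arrays stood apart from the other 4 of their group in 5 of 86 groups of values examined by Dixon's test (ratio above 0.71), and chance gives about 5%. RPS21 214097_at, the bright probe set that rose, read 11.46 in microvesicles 5, with the next at 11.30. RPS6 211690_at read 6.29 in microvesicles 3, with the next at 6.64. RPS14 241241_at read 4.97 in microvesicles 2, with the next at 4.25, and RPS3A 216823_at read 4.94 in microvesicles 4, with the next at 5.44. The average of the 3 probe sets for 18S ribosomal RNA was 11.70 in cells 5, with the next at 12.16. These 4 probe sets passed the limma test without each of these arrays, and the 18S difference lay between -1.74 and -1.51 when any single array was left out.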

How the results depend on the processing

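Among the bright small subunit probe sets the count of rises was 1 and became 4 after a second quantile normalization, 5 after loess by level, 3 with the filter at a mean of 5, 10 with the variance trend, 9 with the exact permutation test and 0 with a bright limit of 12; leaving out each array gave 1 to 4, with 2 without microvesicles 1 and 4 without microvesicles 5. Their count of falls was 0 and became 3 after median centring, 8 with the variance trend and 12 with the exact permutation test. Their median difference was -0.16 after median centring, 0.039 after quantile normalization and 0.065 after loess. The median difference over all probe sets was 0.27 as deposited, 0.11 after median centring, 0.12 after quantile normalization and 0.026 after loess. After these 3 scalings the bright probe sets of all genes had 36, 181 and 191 rises beside 694, 186 and 179 falls. Falls among dim members were 4 after quantile normalization and 3 with the filter. The filter kept 10 of the 20, and their median was 0.70 because members with means under 5 were left out. Among those left out were the falls of RPS27, RPS23, RPS20 and RPS29. Rises over all 54613 tested probe sets were 19318 as deposited, 10282 after quantile normalization and 9911 after loess. With the filter there were 2707 rises, but only among the 19036 probe sets it kept. That count is therefore not comparable with the others. The cause of the other shifts was not tested.

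Over all 62 small subunit probe sets, 9 signs turned after loess, 8 after quantile normalization and 12 after median centring, 0 of them of called differences. Among the named probe sets, RPS27 200741_s_at was -0.042 after centring; FAU 200019_s_at was 0.048 after quantile normalization and 0.047 after loess; RPS6 201254_x_at was 0.056 after loess; RPS28 208903_at was 0.19 and 0.22 in these 2; RPS21 200834_s_at was 0.078 and 0.12 in them, and -0.039 to 0.0072 when single arrays were left out, above 0 without microvesicles 5 (0.0072) or cells 3 (0.0020). RPS16 226130_at and RPS15A 229882_at lost their calls after quantile normalization and loess, RPS29 238824_at after quantile normalization, and RPS16 226130_at and RPS20 216247_at under the permutation test. Over 38 named small subunit probe sets, 605 of 678 comparisons with an alternative left direction and call as they were. Same-numbered preparations correlated at -0.025 to 0.11 in their deviations. Microvesicles 3, 4 and 5 correlated best with the cells of their own number, and microvesicles 1 and 2 with cells of another. Such weak correlations cannot show whether the preparations share a culture, and the main fit did not pair them. With the replicate block 1 bright member rose and 0 fell, and 8 dim members rose and 8 fell, the added one being RPS28 208903_at (adjusted p = 0.0459). EIF4B lost its call with the block (0.0838), after centring (0.19) and with array weights (0.0682).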

Other observations

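Among the bright small subunit probe sets, microvesicles 1 and 5 tended to hold the lower values within their group, a pattern noticed after the values were seen. They were the lowest pair of the 5 microvesicle arrays in 18 of 42 (42.9%), against 23.5% of bright large subunit probe sets, 9.52% of all bright and 11.5% of all probe sets. They were the highest pair in 2 of the 42 (4.76%), against 37.6% of all bright probe sets. The same arrays had the highest 18S control means of the microvesicle group, 11.13 and 10.71. Their 3 prime minus 5 prime differences were the lowest pair for GAPDH, 0.505 and 0.545, but not for ACTB, where they were 2.72 and 3.13 and microvesicles 2 had 2.93. Whether these measures bear on the pattern was not tested.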
